A study of Homo sapiens with 8 samples.

Results

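The COPII coat is the protein shell that buds transport vesicles from the endoplasmic reticulum (ER), and its genes were followed here in human prostate cancer cells with and without overexpression of the microRNA miR-375. The genes were matched by symbol among the 60622 gene lines used, which gave 10 genes of 10 looked for, namely SEC23A, SEC23B, SEC24A, SEC24B, SEC24C, SEC24D, SAR1A, SAR1B, SEC13 and SEC31A. Poly(A) RNA was sequenced from LNCaP, an androgen-responsive line from a lymph node metastasis, and from PC3, a line from a bone metastasis. The 4 groups of 2 libraries each were LNCaP with miR-375 overexpressed, LNCaP control, PC3 with miR-375 overexpressed and PC3 control. All LNCaP cells grew with 10% fetal bovine serum and all PC3 cells with 20%, both in RPMI-1640 with penicillin and streptomycin, so line and serum share cannot be told apart. The sources used here give neither the means and duration of the overexpression nor the treatment of the controls. No label states whether replicate libraries are separate cultures, so each p-value is set against a spread between libraries that could be technical alone.

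COPII assembly begins when the exchange factor PREB (SEC12) loads the small GTPase SAR1 with GTP at the ER membrane. SAR1 then recruits the inner coat, in which SEC23 stimulates GTP hydrolysis by SAR1 and SEC24 binds the cargo, and a cage of SEC13 and SEC31 closes around it. In human cells SEC23, SEC24 and SAR1 are each encoded by paralogous genes, and prostate cells send much secreted and membrane protein through this step. A microRNA pairs with messenger RNAs mainly through its seed, bases 2 to 8 counted from its 5′ end, and SEC23A is among the genes named in earlier literature as a target of miR-375.

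The mature miR-375 and the places in the COPII transcripts that match its seed are printed because they show which coat genes carry a match and of which kind. The microRNA (RefSeq, GRCh38.p14, chr2:219001648-219001669, minus strand) has its seed in capitals, and each 26-base stretch of a 3′ untranslated region (3′UTR; hg38, GENCODE release 29 transcripts) has the match in capitals, all written 5′ to 3′.
hsa-miR-375-3p: uUUGUUCGuucggcucgcguga
SEC23A, chr14:39033041-39033066, minus strand: taatgagagcaataaGAACAAAttta
SAR1A, chr10:70150694-70150719, minus strand: gttaaagccttaagtGAACAAAtcta
SEC24A, chr5:134725710-134725735, plus strand: ttctttatgcttgaaGAACAAAgtca
The transcript strand of 1 transcript per gene, the principal one and then the one with the longest 3′UTR, was searched for CGAACAA, which pairs with bases 2 to 8, for GAACAAA, which pairs with bases 2 to 7 and ends in an A opposite base 1, and for the longer CGAACAAA that holds both. The SEC23A match begins at base 188 of a 1319-base 3′UTR, the SAR1A match at base 1772 of 5187, and the SEC24A match at base 631 of 2729. All 3 are of the form GAACAAA, and none has the C opposite base 8 that the other 2 forms hold. The other 7 genes held none in the transcript searched, although SEC31A held 1 in another transcript with a 693-base 3′UTR, and the SEC24B transcript searched had a 3′UTR of only 21 bases. Another SEC24B transcript with a 1221-base 3′UTR held none either, and some other transcripts lacked the match, with 3′UTRs of 605 bases in SEC24A, 378 and 80 bases in SEC23A and 71 bases in SAR1A. Among 14783 tested genes with an annotated 3′UTR, 14.9% held a match of any form, and the GAACAAA form without a longer one was in 13.9%. Genes with that form alone had a median 3′UTR of 2898 bases, against 855 bases in genes with no match. A match is a description of the letters and does not show a working site.

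Library totals ran from 33973861 to 41890528 counts, and the 10 genes held from 569 to 26602 counts in every library, so all passed the filter on low counts. Levels are given as CPM on TMM-scaled library sizes, changes are log2 fold changes ± SE from edgeR's quasi-likelihood test over 21066 genes, and a gene was called where its Benjamini-Hochberg adjusted p was under 0.05. The line labels matched their markers: the prostate antigen KLK3 averaged 1829 CPM in LNCaP with miR-375 and 2786 CPM in LNCaP controls and had 0 counts in every PC3 library, while FOSL1 stayed under 1.1 CPM in every LNCaP library. The endothelial and leukocyte genes CDH5, PTPRC, CD3E and CD68 stayed under 0.3 CPM throughout, whereas PECAM1 averaged 32.3 CPM in PC3 with miR-375 and 45.1 CPM in PC3 controls, and COL1A1 averaged 373 and 139 CPM in the same groups. The MIR375 gene itself had 0 counts in all 8 libraries, which allows up to 0.0716 to 0.0883 CPM, and since a poly(A) library is not made to hold the mature microRNA this checks no label. In such bulk RNA, fewer cells of a kind and less RNA per cell cannot be told apart.

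SEC23A fell in both lines and was the COPII gene that fell furthest. SEC23A (chr14:39031919-39109646, minus strand) encodes an inner-coat subunit that activates the GTPase of SAR1. In LNCaP its level was 82.3 and 70.0 CPM with miR-375, against 187 and 190.2 CPM in controls. PC3 cells held 119 and 119 CPM of it with miR-375, against 239 and 232 CPM in controls. The groups did not overlap in either line, and every miR-375 library lay below every control library of both lines. The log2 fold change was -1.31 ± 0.05 in LNCaP, a 2.47-fold fall (n = 2 per group, adjusted p = 5.43e-21 by edgeR), and -0.99 ± 0.05 in PC3, a 1.98-fold fall (adjusted p = 9.43e-19 by edgeR). Of the 21066 tested genes, 711 (3.38%) had a lower log2 fold change in LNCaP and 1503 (7.13%) in PC3, so SEC23A lay near the lower end of all changes without being among the lowest. The fall was larger in LNCaP by 0.32 ± 0.07 on the log2 scale (difference -0.32, adjusted p = 0.000434 by edgeR), but this rests on LNCaP miR-375 library 2: without it the difference was -0.14 (adjusted p = 0.127).

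SEC23B (chr20:18507482-18561415, plus strand), the paralog that can take the same place in the inner coat, moved much less. Its level in LNCaP was 214 and 203 CPM with miR-375, against 225 and 234 CPM in controls. The PC3 libraries had 112 and 109 CPM with miR-375, against 135 and 134 CPM in controls. The miR-375 libraries lay below their controls in each line, with the smaller gap in LNCaP. SEC23B fell in PC3 (-0.28 ± 0.04, adjusted p = 5.7e-07 by edgeR) and was called lower in LNCaP (-0.14 ± 0.04, adjusted p = 0.00588 by edgeR). The LNCaP call was lost in 9 of 17 alternative settings, among them the fits without LNCaP control library 1 (-0.12), without LNCaP control library 2 (-0.058) and without LNCaP miR-375 library 2 (-0.055), and under library totals the value was -0.017. The difference between lines was 0.14 ± 0.06 (adjusted p = 0.0688 by edgeR), and it was called in 10 of 16 settings, at 0.18 to 0.25 without 1 of the 4 LNCaP libraries. No seed match was found in the SEC23B transcript searched.

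SAR1A, a GTPase that starts coat assembly, fell in both lines, and its paralog SAR1B did not fall in either. SAR1A (chr10:70147289-70170523, minus strand) was at 100.6 and 99.97 CPM in LNCaP with miR-375, against 156 and 153 CPM in LNCaP controls. PC3 levels of SAR1A were 410.1 and 399.6 CPM with miR-375, against 565 and 552 CPM in controls. Replicates lay close together and the groups did not overlap in either line. SAR1A fell by 0.62 ± 0.04 on the log2 scale in LNCaP, 1.54-fold (adjusted p = 6.66e-16 by edgeR), and by 0.46 ± 0.03 in PC3, 1.38-fold (adjusted p = 5e-14 by edgeR). The difference between the lines was -0.16 ± 0.05 (adjusted p = 0.0177 by edgeR), a call lost in 12 of 16 settings, including those without any single LNCaP library (-0.096 to -0.065), without PC3 control library 2 (-0.13) and without PC3 miR-375 library 1 (-0.14). SAR1B (chr5:134601144-134649271, minus strand) was at 218 and 200.4 CPM in LNCaP with miR-375, against 185 and 189 CPM in controls, and at 74.7 and 74.9 CPM in PC3 with miR-375, against 69.8 and 71.3 CPM in controls. SAR1B rose in LNCaP (0.16 ± 0.04, adjusted p = 0.00253 by edgeR; 0.27 without LNCaP miR-375 library 2) and was not called in PC3 (0.085 ± 0.05, adjusted p = 0.151 by edgeR; 0.16 and called under library totals).

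**Figure D1:**
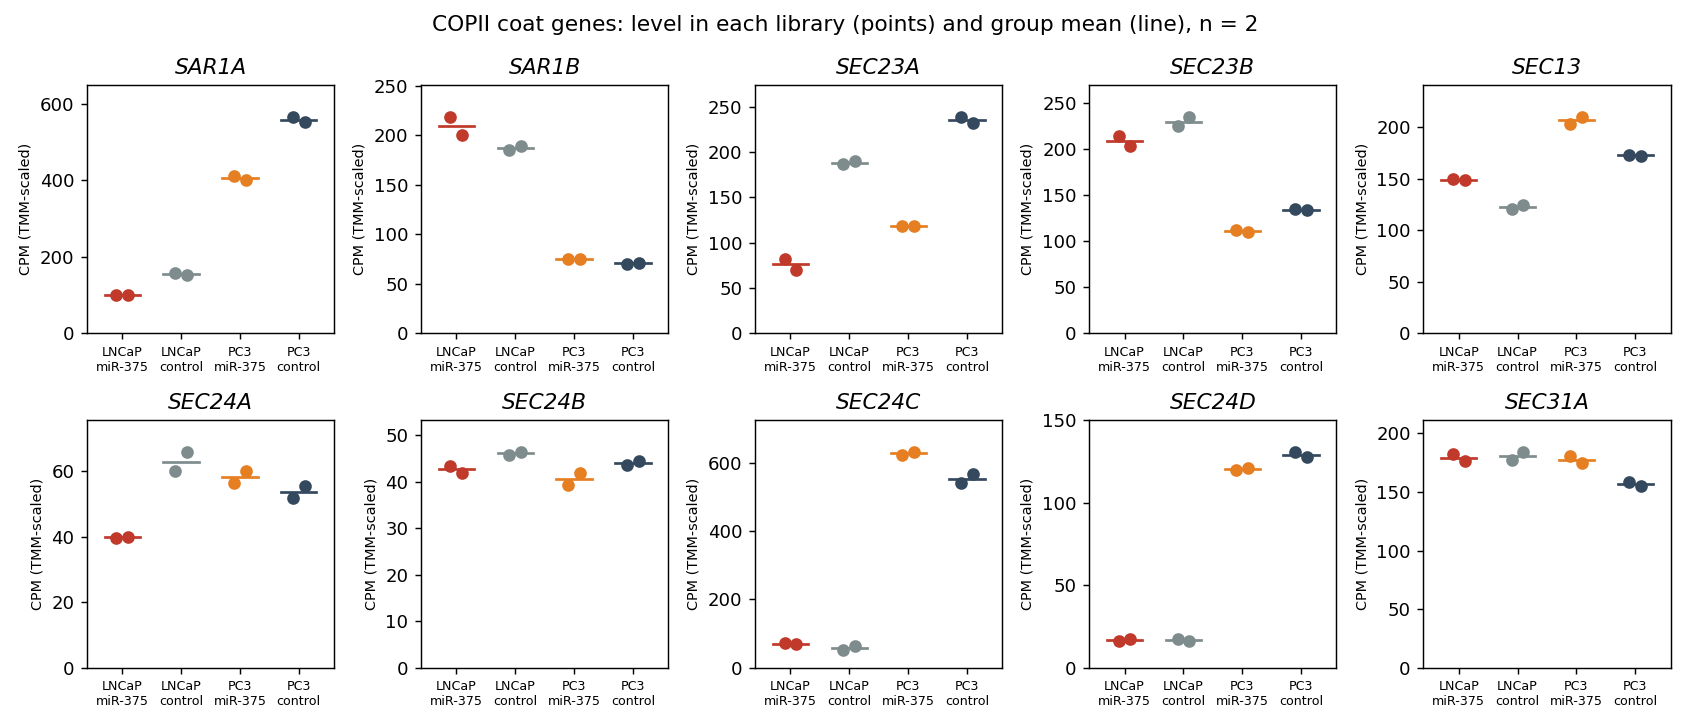
CPM on TMM-scaled library sizes (vertical axes, each from 0) of the 10 COPII genes in each library (points), with the mean of the 2 libraries of a group (line), for LNCaP miR-375, LNCaP control, PC3 miR-375 and PC3 control. SEC23A and SAR1A were lower with miR-375 in both lines, and SEC24C and SEC24D were far lower in LNCaP than in PC3.

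The SEC24 genes encode the subunits that recognise cargo, and they did not move together. SEC24A (chr5:134648789-134727823, plus strand) was at 39.8 and 39.9 CPM in LNCaP with miR-375, against 60.1 and 65.9 CPM in LNCaP controls. PC3 levels of SEC24A were 56.3 and 60.2 CPM with miR-375, against 52.0 and 55.5 CPM in controls. Thus SEC24A was lower with miR-375 in LNCaP without overlap, while in PC3 the miR-375 libraries lay slightly above the controls. SEC24A fell 1.58-fold in LNCaP (-0.66 ± 0.06, adjusted p = 9.5e-11 by edgeR) and was not called in PC3 (0.12 ± 0.06, adjusted p = 0.129 by edgeR; 0.19 and called under library totals). The test of the difference itself gave -0.78 ± 0.09 (adjusted p = 8.39e-09 by edgeR), which held in all 16 settings tried. SEC24A carries the same form of seed match as SEC23A and SAR1A, both of which fell in PC3 as well.

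SEC24B (chr4:109433772-109540896, plus strand), the closest paralog of SEC24A, was not called in either line. It was at 43.5 and 41.9 CPM in LNCaP with miR-375, against 45.8 and 46.3 CPM in controls, and at 39.2 and 41.9 CPM in PC3 with miR-375, against 43.6 and 44.4 CPM in controls. Its log2 fold changes were -0.11 ± 0.07 in LNCaP (adjusted p = 0.223 by edgeR) and -0.12 ± 0.06 in PC3 (adjusted p = 0.149 by edgeR). A p above the threshold does not show that its level was the same.

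SEC24C (chr10:73744384-73772161, plus strand) was higher with miR-375. It was at 71.3 and 68.9 CPM in LNCaP with miR-375, against 53.3 and 64.0 CPM in LNCaP controls, which were the farthest apart of any control pair of the 10 genes in proportion to their mean. In PC3 it was at 623 and 631 CPM with miR-375, against 540.3 and 566 CPM in controls. SEC24C rose by 0.26 ± 0.06 on the log2 scale in LNCaP (adjusted p = 0.000565 by edgeR; 0.45 without LNCaP control library 2) and by 0.18 ± 0.05 in PC3 (adjusted p = 0.00156 by edgeR, 0.151 by DESeq2). SEC24D (chr4:118722823-118838683, minus strand), the closest paralog of SEC24C, was at 16.5 and 17.1 CPM in LNCaP with miR-375, against 17.3 and 16.3 CPM in controls. In PC3 it was at 119.5 and 121 CPM with miR-375, against 131 and 127 CPM in controls. The LNCaP groups of SEC24D overlapped (-0.00031 ± 0.07 on the log2 scale, adjusted p = 1 by edgeR), and in PC3 the change of -0.10 ± 0.05 was not called (adjusted p = 0.105 by edgeR), although 7 of 17 settings called it, with values from -0.13 to -0.10.

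Of the outer cage genes, SEC13 was higher with miR-375 in both lines and SEC31A was called higher in PC3 only. SEC13 (chr3:10293131-10321178, minus strand), which pairs with SEC31 in the cage and also serves in the nuclear pore, was at 149.7 and 148 CPM in LNCaP with miR-375, against 120.2 and 124 CPM in controls. PC3 levels of SEC13 were 203 and 209.6 CPM with miR-375, against 173 and 172 CPM in controls. SEC13 rose in both lines, by 0.29 ± 0.04 in LNCaP (adjusted p = 4.08e-07 by edgeR) and 0.26 ± 0.04 in PC3 (adjusted p = 9.78e-07 by edgeR) on the log2 scale, and the difference between them was 0.031 ± 0.06 (adjusted p = 0.779 by edgeR). SEC31A (chr4:82818661-82901166, minus strand), which completes the cage and speeds GTP hydrolysis further, was at 182 and 176 CPM in LNCaP with miR-375, against 177 and 184 CPM in controls. PC3 levels of SEC31A were 181 and 175 CPM with miR-375, against 158 and 155 CPM in controls. SEC31A overlapped between groups in LNCaP (-0.011 ± 0.04, adjusted p = 0.894 by edgeR; 0.11 and called under library totals) and rose in PC3 (0.18 ± 0.04, adjusted p = 0.000285 by edgeR). The difference between lines was -0.19 ± 0.06 (adjusted p = 0.0095 by edgeR), but 12 of 16 settings lost this call, among them those without any single LNCaP library (-0.14 to -0.086), without PC3 control library 2 (-0.16) and without PC3 miR-375 library 1 (-0.16).

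**Figure D2:**
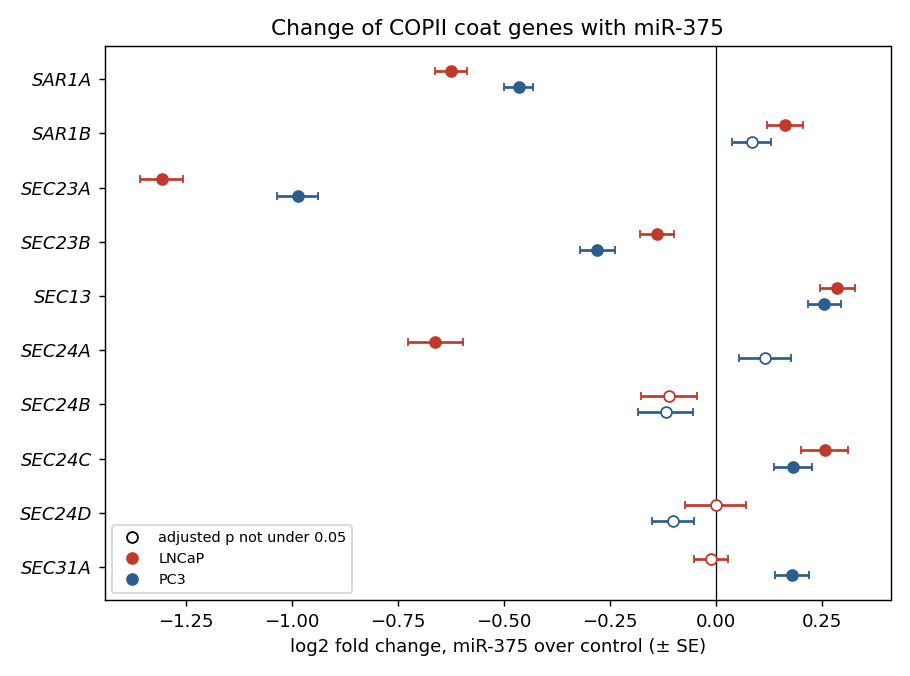
Log2 fold change of each COPII gene, miR-375 over control (horizontal axis, ± SE, n = 2 per group), in LNCaP and PC3; open points had an adjusted p that was not under 0.05. SEC23A stood lowest in both lines, and SEC24A was the only gene of the 10 whose difference between lines held in every setting.

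Over the 10 genes, 4 fell and 3 rose in LNCaP, where 32.6% of all tested genes were called, 18.7% lower and 13.9% higher. In PC3, 3 fell and 3 rose, where 43.0% of all tested genes were called, 20.8% lower and 22.2% higher. Among the 10341 tested genes with a mean of at least 10 CPM, which are the better measured ones, the shares called lower were 34.4% in LNCaP and 35.7% in PC3, and those called higher were 20.8% and 29.2%, so these counts were close to the background. The median log2 fold change of the 10 genes was -0.061 in LNCaP and -0.0077 in PC3, against 0 and 0.022 over all tested genes. SEC23A, SEC23B and SAR1A were called lower in both lines (10.5% of all tested genes were), SEC24C and SEC13 higher in both (7.10%), SEC24B and SEC24D in neither, and no COPII gene in opposite directions (4.30%). Of the differences between lines 4 of 10 were called, all more negative in LNCaP, where 26.5% of tested genes were called, 15.6% more negative and 10.9% more positive in LNCaP. Of all called differences 41.2% were more positive in LNCaP in the main fit and 50% under RLE factors. For the calls over both lines and for these differences the shares at 10 CPM or more were not computed. Neither set of counts therefore shows an excess over well-measured genes. In LNCaP 42.7% of all called genes were higher in the main fit and 64.4% under library totals, which shifted the median of all genes to 0.12, and the falls of SEC23A, SEC24A and SAR1A were called under both.

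Genes with a GAACAAA match as their only form had a median log2 fold change of -0.14 in LNCaP and -0.073 in PC3, against 0 and 0.024 in genes with no match. Of those genes 37.3% were called lower in LNCaP and 37.6% in PC3, while among genes with no match the shares were 23.5% and 25.4%. The 61 genes with a CGAACAAA match had medians of -0.094 and -0.061, with 31.1% lower in LNCaP and 36.1% in PC3. The 88 genes with CGAACAA and no longer match had medians of -0.076 and 0.011, with 34.1% lower and 11.4% higher in LNCaP and 27.3% lower and 28.4% higher in PC3. The 3 COPII genes with a match had log2 fold changes of -1.31, -0.62 and -0.66 in LNCaP and -0.99, -0.46 and 0.12 in PC3, in the order SEC23A, SAR1A and SEC24A. The 3′UTRs with a match were longer, and the part of length in these medians was not tested.

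Because SEC23A fell further than SEC23B, the make-up of the SEC23 pair differed with miR-375 in each line. The make-up also differed between the control groups, where SEC23B was higher and SEC23A lower in LNCaP. Levels per length are CPM per kb of annotated exon length, taken as the union over all transcripts of a gene. They compare genes only as far as that length fits the transcripts expressed. On this scale SEC23A averaged 8.51 ± 0.98 in LNCaP with miR-375 and 21.1 ± 0.27 in LNCaP controls (SD, n = 2 each). In PC3 it averaged 13.3 ± 0.0082 with miR-375 and 26.3 ± 0.52 in controls. SEC23B averaged 47.5 ± 1.73, 52.3 ± 1.54, 25.2 ± 0.33 and 30.6 ± 0.17 CPM per kb in the same order of groups, above SEC23A in all 4. Per length, SEC23A made up 15.2% of the SEC23 pair in LNCaP with miR-375 and 28.7% in LNCaP controls, and 34.5% in PC3 with miR-375 and 46.3% in PC3 controls. From the counts as deposited the same shares were 26.7%, 45.1%, 51.8% and 63.7%, so their size depends on the length used. In a pair of genes a fixed length per gene cannot change the order of the groups, so that order is no check. By counts SEC23A was thus the larger part in both PC3 groups, whereas per length SEC23B was the larger in all 4 groups. The sum of the pair was 56.1 ± 2.71 CPM per kb in LNCaP with miR-375 and 73.4 ± 1.81 in LNCaP controls, and 38.5 ± 0.34 in PC3 with miR-375 and 56.9 ± 0.69 in PC3 controls. Shares and sums are given as descriptions and were not tested.

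The SAR1 pair also differed in make-up, most of all between the lines. SAR1A made up 43.2% of the SAR1 pair per length in LNCaP with miR-375 and 56.7% in LNCaP controls, and 89.6% in PC3 with miR-375 and 92.6% in PC3 controls. From the counts as deposited the same shares were 32.4%, 45.3%, 84.4% and 88.8%. SAR1B was thus the larger part in LNCaP with miR-375 and SAR1A in both PC3 groups on either scale, while in LNCaP controls SAR1A was the larger part per length and SAR1B by counts. The sum of the pair was 33.6 ± 1.22 CPM per kb in LNCaP with miR-375 and 39.4 ± 0.048 in LNCaP controls, and 65.4 ± 1.06 in PC3 with miR-375 and 87.2 ± 1.24 in PC3 controls.

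SEC24C was the largest part of the SEC24 sum per length in all 4 groups, with a larger share in PC3. In PC3, SEC24C made up 80.8% of the SEC24 sum per length with miR-375 and 78.2% in controls, followed by SEC24D with 8.34% and 9.82%. In LNCaP, SEC24C made up 46.0% with miR-375 and 36.2% in controls, and SEC24D only 5.93% and 5.62%. SEC24A made up 19.4% in LNCaP with miR-375 and 28.9% in LNCaP controls, where it did not differ from SEC24B, at 29.2%, beyond the spread of the replicates. By counts the order in LNCaP controls was another, with SEC24A at 34.1 ± 0.13%, SEC24C at 31.7 ± 2.15% and SEC24B at 25.0 ± 1.33% of the SEC24 sum (SD, n = 2). The sum over the 4 genes was 28.5 ± 0.46 CPM per kb in LNCaP with miR-375 and 30.2 ± 2.01 in LNCaP controls, an overlap of the libraries, and 145 ± 1.96 in PC3 with miR-375 and 132 ± 3.62 in PC3 controls.

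**Figure D3:**
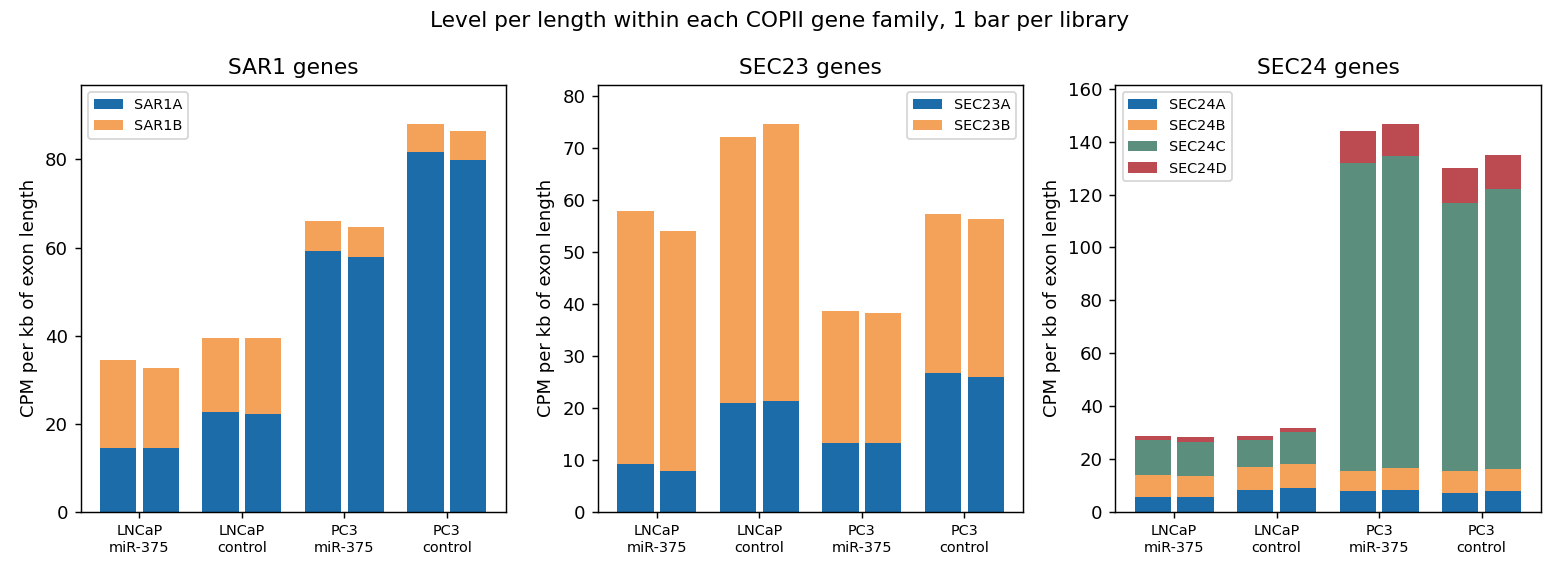
CPM per kb of exon length (vertical axes, from 0) of the SEC23, SAR1 and SEC24 genes, stacked, with 1 bar per library and the groups in the order LNCaP miR-375, LNCaP control, PC3 miR-375 and PC3 control. The SEC23A segment was smaller with miR-375 in both lines, and SEC24C filled most of the bar in PC3 but not in LNCaP.

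Across the 4 groups the order of SEC23A levels was PC3 control (236 ± 4.61 CPM), LNCaP control (188 ± 2.46), PC3 with miR-375 (119 ± 0.073) and LNCaP with miR-375 (76.2 ± 8.77). Every pair of neighbours in this order was separated by more than the spread of the replicates. Between the control groups 9 of 10 COPII genes differed, 4 higher and 5 lower in LNCaP, where 80.4% of all tested genes were called, 41.2% higher and 39.2% lower. SEC24C was 9.42-fold lower in LNCaP controls than in PC3 controls (-3.24 ± 0.05, adjusted p = 3.98e-28 by edgeR), SEC24D 7.68-fold lower (-2.94 ± 0.06) and SAR1A 3.61-fold lower (-1.85 ± 0.04). SEC13 (-0.50 ± 0.04) and SEC23A (-0.32 ± 0.05) were also lower in LNCaP controls. SAR1B was 2.65-fold higher in LNCaP controls (1.41 ± 0.05) and SEC23B 1.71-fold higher (0.77 ± 0.04), with smaller differences for SEC31A (0.21 ± 0.04) and SEC24A (0.23 ± 0.06; 0.13 and not called, adjusted p = 0.133 by edgeR, without LNCaP control library 2). SEC24B did not pass (0.066 ± 0.07, adjusted p = 0.355 by edgeR). For SEC23A the gap between the lines was therefore smaller than its change with miR-375 in either line. The gap was larger than either change in size for SEC24C, SEC24D, SAR1A, SAR1B, SEC23B and SEC13, and only slightly so for SEC31A. For SEC24A it lay between the LNCaP and PC3 changes in size, and no comparison of SEC24B was called.

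SEC24C and SAR1A lie on the same arm of chromosome 10 with starts 3.57 Mb apart, and the genes around them were also lower in LNCaP controls than in PC3 controls. Within 1 Mb of the start of SEC24C, a window chosen after the values were seen, 16 other protein-coding genes at 5 CPM or more had a median log2 difference of -1.75, and 15 of them were called lower in LNCaP and 1 higher. Within 1 Mb of SAR1A, 9 of 13 such genes were called lower and 2 higher, with a median of -0.97. Over all 11206 such genes the median was -0.045, and 5235 (46.7%) were called lower and 4860 higher. Between the 2 starts the pattern was mixed, with 13 of 23 genes called lower and 8 higher. On chromosome 5, SAR1B and SEC24A are neighbours, and within 1 Mb of each start 14 of 16 other genes were called higher in LNCaP controls and 2 lower. These windows almost coincide, and each counts the other COPII gene among its genes called higher. The 5 genes around SEC23A had a median of -0.0065.

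**Figure D4:**
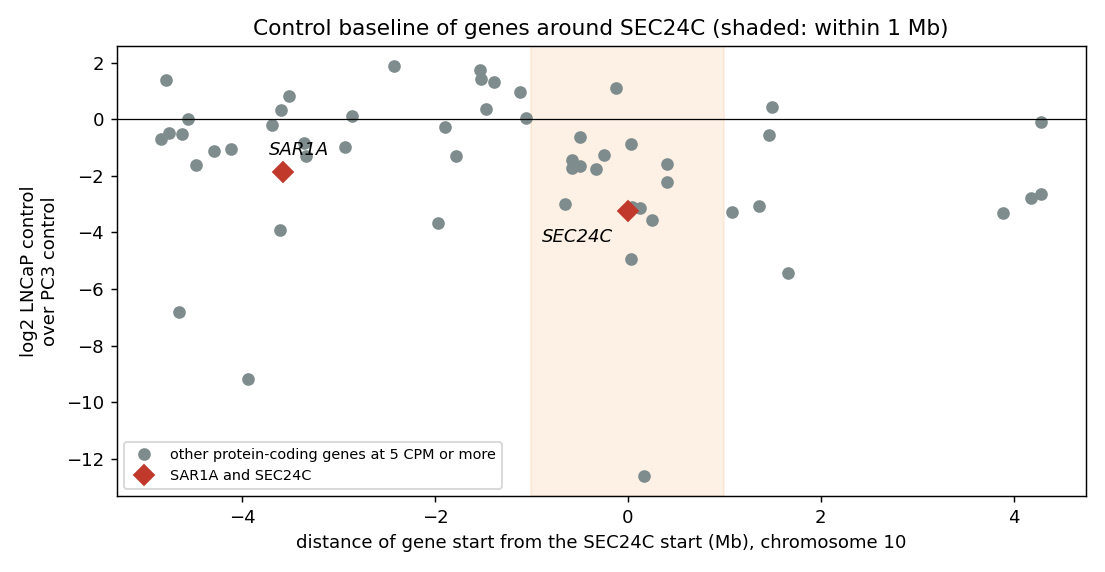
Log2 of LNCaP control over PC3 control (vertical axis) for protein-coding genes at 5 CPM or more, by distance of the gene's start from that of SEC24C in Mb (horizontal axis); the shading marks 1 Mb to either side. SEC24C and SAR1A lie among genes that were mostly lower in LNCaP; the lowest point is PLAU, which had only 8 and 0 counts in the LNCaP control libraries, so its position is poorly determined.

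Some COPII genes share exonic bases with other genes, and the sources used here do not give the strand setting of the counting. SAR1B and SEC24A overlap at their 5′ ends on opposite strands and share 385 exonic bases, so reads there cannot be assigned to either with certainty. SEC31A shares 482 exonic bases on the same strand with THAP9-AS1, which had up to 1739 counts in a library. SEC24C shares 2293 bases with an opposite-strand transcript that had at most 59 counts, and SEC23A-AS1, opposite SEC23A, had at most 5.

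The genes whose levels most resembled SEC23A over the 8 libraries, by Pearson's r of log2 CPM among 10340 genes at 10 CPM or more, were ATAD2, XRCC5, DDIAS, PLEKHA3 and MTDH, with r from 0.996 to 0.997. These points share 4 groups and their scaling, so r is only a description of the pattern. ATAD2 fell by 1.55 in LNCaP and 1.18 in PC3 on the log2 scale and MTDH by 1.49 and 1.09, close to SEC23A, while XRCC5, which encodes a subunit of the DNA end-binding protein Ku, fell by only 0.30 and 0.22. Among the other COPII genes r with SEC23A was highest for SEC24A (0.703) and SAR1A (0.62) and lowest for SEC31A (-0.594).

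Genes that act with the coat were read from 5 lists of 66 genes in all, 65 of which were tested. Of these, 17 fell and 14 rose in LNCaP (median log2 fold change 0.0015) and 17 fell and 29 rose in PC3 (0.070). Over all tested genes the shares were 18.7% lower and 13.9% higher in LNCaP and 20.8% lower and 22.2% higher in PC3, and over genes with a mean of at least 10 CPM they were 34.4% lower and 20.8% higher in LNCaP and 35.7% lower and 29.2% higher in PC3. The LNCaP counts rest on the scaling, since under library totals 9 fell and 30 rose. Without LNCaP control library 2, or without LNCaP miR-375 library 2, 11 fell there. The regulators at ER exit sites, where the coat assembles, had 3 lower and 0 higher of 11 tested in LNCaP, where 34.4% of genes at 10 CPM or more were lower, and 5 lower and 2 higher in PC3, where 35.7% were lower. SEC23IP, which binds SEC23 at exit sites, was at 130.002 and 121 CPM in LNCaP with miR-375, against 172 and 176 CPM in controls, and at 91.1 and 91.0 CPM in PC3 with miR-375, against 105 and 111 CPM in controls. It fell in both lines, by 0.47 ± 0.04 in LNCaP and 0.25 ± 0.05 in PC3 on the log2 scale.

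SEC16A, the scaffold of exit sites, was called lower in LNCaP (-0.19 ± 0.04), a call lost in 3 of 17 settings, among them the fit without LNCaP miR-375 library 1 (-0.10). MIA3 (TANGO1), which helps the coat export bulky cargo such as collagen, moved in opposite directions in the lines. It was at 178 and 174 CPM in LNCaP with miR-375, against 232 and 242 CPM in controls, and at 261 and 262 CPM in PC3 with miR-375, against 177 and 179 CPM in controls. The groups did not overlap in either line. MIA3 fell by 0.43 ± 0.04 in LNCaP and rose by 0.56 ± 0.04 in PC3, a difference of -0.99 (adjusted p = 6.62e-17 by edgeR). PDCD6 (ALG-2), a calcium-binding partner of SEC31A, had few counts, at 5.69 and 6.27 CPM in PC3 with miR-375, against 12.3 and 12.1 CPM in controls. It fell 2.04-fold in PC3 (-1.03 ± 0.15) and was not called in LNCaP (-0.22 ± 0.17). Exon overlaps were looked up for the COPII genes only, so whether PDCD6 reads were counted to another gene is not known. PEF1, the partner of PDCD6, fell in PC3 (-0.29 ± 0.06) and was not called in LNCaP. PREB, the exchange factor for SAR1, averaged 97.6 ± 0.77 CPM in LNCaP with miR-375 and 96.4 ± 0.0017 CPM in controls and was not called there (0.016 ± 0.05). In PC3 it rose slightly (0.18 ± 0.05, adjusted p = 0.00309 by edgeR). It was named after its values were seen.

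Cargo receptors, which link cargo to SEC24 or cycle between ER and Golgi, had 8 lower and 4 higher of 21 in LNCaP and 7 lower and 11 higher in PC3. At 10 CPM or more, 34.4% of genes were lower and 20.8% higher in LNCaP, and 35.7% were lower and 29.2% higher in PC3. LMAN1, the mannose-binding receptor that carries clotting factors, was at 135 and 132 CPM in LNCaP with miR-375, against 258.7 and 273 CPM in controls. In PC3 it was at 434 and 432 CPM with miR-375, against 552 and 557 CPM in controls. LMAN1 fell in both lines and fell more in LNCaP (-0.996 ± 0.04 and -0.36 ± 0.03, difference -0.64). Its partner MCFD2 had the larger fall in PC3, by 0.91 ± 0.04 on the log2 scale to 241 and 252 CPM, against 461 and 462 CPM in controls. In LNCaP, MCFD2 changed by -0.19 ± 0.05, a call lost in 4 of 17 settings, among them those without LNCaP control library 2 (-0.081) and without LNCaP miR-375 library 2 (-0.12). LMAN2 fell by 0.69 in LNCaP and 0.74 in PC3, and the p24 family member TMED5 by 0.86 and 0.66. SURF4, a receptor for soluble cargo, rose by 0.36 and 0.64, and TMED9, another p24 protein, by 0.35 and 0.84. KDELR1 rose by 0.29 and 0.46 and ERGIC2 by 0.17 and 0.24, the LNCaP value of ERGIC2 being 0.26 without LNCaP control library 2 and 0.27 without LNCaP miR-375 library 2. CNIH1, a cargo receptor of the cornichon family, changed by -0.21 and -0.17, and its LNCaP call was lost without LNCaP miR-375 library 2 (-0.11; -0.13 and called without LNCaP control library 1). TMED3 rose in PC3 (0.92) and was not called in LNCaP (0.055), and the difference itself, -0.87, was called. KDELR3, a receptor that returns escaped ER proteins, fell in LNCaP (-0.47 ± 0.12) from a low level and rose in PC3 (0.68 ± 0.07), a difference of -1.15.

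The COPI coat, which carries vesicles back to the ER, had 2 lower and 4 higher of 11 genes in LNCaP and 1 lower and 5 higher in PC3, against 34.4% lower and 20.8% higher in LNCaP and 35.7% lower and 29.2% higher in PC3 among genes at 10 CPM or more. COPG2, a coat subunit with a paralog in COPG1, fell in both lines (-0.49 ± 0.08 and -0.76 ± 0.08), while COPG1 rose slightly (0.16 in each). COPB2 (0.22 and 0.20) and ARCN1 (0.21 and 0.28), subunits of the same coat, rose as well, and COPE rose in PC3 (0.27). COPZ1 was called lower in LNCaP (-0.098 ± 0.04), a call lost in 15 of 17 settings. Tethers and SNAREs, which dock vesicles at the Golgi, had 2 lower and 6 higher of 17 in LNCaP and 3 lower and 8 higher in PC3, to be read against the same shares. The tethers USO1 (0.45 and 0.48) and GOLGA2 (0.37 and 0.78) rose in both lines, as did SCFD1, a partner of the SNARE syntaxin-5 (0.13 and 0.49; 0.21 in LNCaP without LNCaP control library 1). The SNARE YKT6 was called lower in both (-0.18 and -0.31), its LNCaP call being lost without LNCaP control library 2 (-0.11) and without LNCaP miR-375 library 1 (-0.11). TRAPPC1 rose in LNCaP (0.31) and TRAPPC5, at a low level, in PC3 (0.80). In LNCaP the TRAPPC5 change of 0.58 was not called (adjusted p = 0.0571 by edgeR), although 11 of 17 settings called it. Its difference between lines was -0.22 and was not called (adjusted p = 0.719 by edgeR). Of 5 transcription factors that control secretory genes, CREB3 fell in both lines (-0.31 ± 0.07 and -0.67 ± 0.07), to 31.1 and 28.6 CPM in LNCaP and 35.6 and 31.9 CPM in PC3 with miR-375, against 37.9 and 36.4 CPM in LNCaP controls and 53.0 and 54.7 CPM in PC3 controls. The LNCaP call of CREB3 was lost without LNCaP control library 1 (-0.23) and without LNCaP miR-375 library 2 (-0.21). CREB3L1 (0.33), CREB3L2 (0.24) and ATF6 (0.18) rose in PC3 and were not called in LNCaP, and the ATF6 call was lost without PC3 control library 2 (0.11). CREB3L1 was 146-fold lower in LNCaP controls than in PC3 controls, so its LNCaP change (0.41 ± 0.50) was poorly determined. XBP1 was called lower in LNCaP (-0.10 ± 0.04), a call lost in 16 of 17 settings. The 5 factors had 2 lower and 0 higher in LNCaP and 1 lower and 3 higher in PC3, to be read against the same shares.

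**Figure D5:**
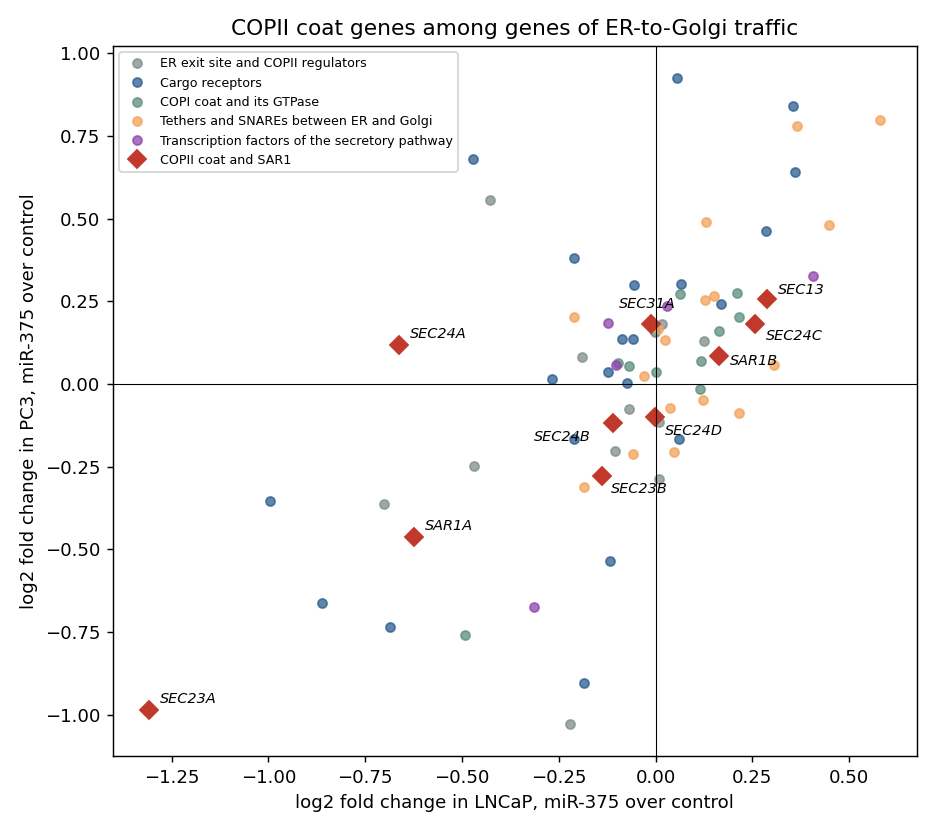
Log2 fold change, miR-375 over control, in LNCaP (horizontal axis) and PC3 (vertical axis) for the 10 COPII genes (diamonds) and the 65 tested genes of the 5 lists (points, coloured by list). SEC23A lies at the lower left, at -1.31 and -0.99, and MIA3 and KDELR3 lie in the quadrant that was lower in LNCaP and higher in PC3.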

How the data were processed

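The authors deposited whole-number counts per gene, not normalized, for all 8 libraries in a single table. Per the submitters' processing notes, fastp, STAR 2.7.1a, featureCounts, DESeq2 and hg38 were used. The sources used here do not give the annotation, the strand setting or whether a count is a read or a pair. From 68.1% to 70.3% of counts from 1 to 20 were even, by library. Of 60625 gene lines, 3 broken ones were left out (279 counts), so ANK2 was not analysed here.

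Genes passing filterByExpr (21066) were fitted in a model of 4 groups by edgeR 4.0.16 (TMM, glmQLFit, glmQLFTest, 4 residual degrees of freedom) in R 4.3.3, with Benjamini-Hochberg adjustment and calls under 0.05. The fit also borrows its estimate of spread from all genes, so a p-value does not rest on the replicates of that gene alone. SE is the log2 fold change divided by the square root of F. The fit was run on data simulated from its own model with few changed genes, so that run does not test the scaling. Exon lengths, 3′UTRs and neighbours came from GENCODE release 29, matched by gene ID for 58515 lines (96.5%). The limit of a count of 0 was 3 counts over the library total, for counting error only.

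The COPII genes, lists and alternatives were chosen with earlier results of these data known. Named were all 10 COPII genes and, per list, genes called alike in both lines, the 3 largest called changes per line and the 3 largest called differences; the text gives part of these. Alternatives were RLE factors, library totals, DESeq2 1.42.0, limma-voom 3.58.1, no filter, a mean CPM of at least 1, each line or the controls alone, halved counts, the replicate block and each library left out. Replicate numbers were not used to pair samples in the main fit. Replicates differed by more than sampling noise and none was a duplicate.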

Additional observations from a re-analysis of the deposited data

Results flagged for a closer look

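The change with miR-375 differed between LNCaP and PC3 for 4 COPII genes and for listed genes that work with the coat. This was by a test of the difference itself (edgeR, adjusted p under 0.05, LNCaP effect minus PC3 effect on the log2 scale). Of the 65 listed genes tested, 26 were more negative and 11 more positive in LNCaP (15.6% and 10.9% of all tested genes were). The same shares among genes at 10 CPM or more were not computed, so these counts do not show an excess over well-measured genes. Of all called differences 41.2% were more positive in LNCaP in the main fit and 50% under RLE factors. The 23 listed genes named here follow the rule for named genes. Among the COPII genes the differences were -0.32 for SEC23A, -0.78 for SEC24A, -0.16 for SAR1A and -0.19 for SEC31A. Of these the SEC24A difference was called in all 16 settings, and the SEC23A difference in all but the fit without LNCaP miR-375 library 2.

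At ER exit sites the differences were -0.27 for SEC16A, -0.99 for MIA3, 0.81 for PDCD6, 0.30 for PEF1 and -0.22 for SEC23IP. For the cargo receptors they were -0.64 for LMAN1, 0.72 for MCFD2, -0.28 for SURF4, -0.87 for TMED3, -0.49 for TMED9, -0.18 for KDELR1 and -1.15 for KDELR3. For the COPI coat they were -0.21 for COPE, -0.16 for COPZ1 and -0.12 for ARF1. For tethers and SNAREs they were -0.42 for GOLGA2, -0.41 for GOSR2, -0.36 for SCFD1 and 0.25 for TRAPPC1. For the transcription factors they were 0.36 for CREB3, -0.21 for CREB3L2, -0.31 for ATF6 and -0.16 for XBP1. MIA3 and KDELR3 were called in opposite directions in the 2 lines, and so was GOSR2, whose LNCaP call was lost in 8 of 17 settings. The differences of ARF1, COPE, COPZ1, CREB3L2, KDELR1 and XBP1 were lost in 11 to 15 of 16 settings, those of SAR1A and SEC31A in 12 and that of SEC23IP in 9.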

How the results depend on the processing

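The SEC23A change ran from -1.38 to -1.15 in LNCaP and from -1.02 to -0.91 in PC3 over every setting tried, and the difference between its control groups from -0.37 to -0.29, all called. Its difference of effects ran from -0.37 to -0.14 with 1 library left out, the last without LNCaP miR-375 library 2. Under library totals SEC31A in LNCaP changed sign to 0.11, as did COPZ1 (to 0.024) and XBP1 (to 0.019), 5 COPII genes were higher in PC3 in place of 3, and 30 listed genes were higher and 9 lower in LNCaP. With no filter 11 listed genes were lower in LNCaP, and leaving out 1 library gave 11 to 15. For the difference between lines, 1 COPII gene was higher and 2 lower under RLE factors, library totals, DESeq2, a mean CPM of at least 1 and halved counts, and 2 higher and 2 lower with no filter. With 1 library left out there were 0 to 2 higher and 1 to 4 lower. The listed genes with a lower difference numbered 16 under RLE factors, a mean CPM of at least 1 and halved counts, 17 under DESeq2, 12 with no filter and 13 to 21 with 1 library left out, against 26; those with a higher one numbered 7 to 15 with 1 library left out and 7 to 16 over all settings, against 11. Per length the SEC23A shares were 15.2%, 28.7%, 34.5% and 46.3%. The cause of these shifts was not tested.

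The labels do not say whether same-numbered libraries were prepared together. Their deviations had r = 0.0835 in LNCaP and 0.00639 in PC3, so no strong shared replicate effect was seen, which cannot exclude pairing. With the replicate block SEC23A changed by -1.31 in LNCaP and -0.99 in PC3, and 6617 genes were called in LNCaP, against 6860. No COPII call in either line changed under the block. A line fitted alone gives no difference between lines. Leaving out a library leaves its group with 1, which is then assumed to vary like the other groups.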
